A study of Caenorhabditis elegans with 12 samples.

Results

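Transcript levels are described here for 10 *C. elegans* Argonaute genes, *prg-1*, *csr-1*, *wago-1*, *wago-4*, *hrde-1*, *ergo-1*, *alg-1*, *alg-2*, *alg-3* and *alg-4*. They were chosen by gene name, and all 10 were found among the 46904 genes of the deposited table. RNA of samples labelled as whole worms was sequenced in 12 libraries, in 4 groups of 3. Wild-type N2 worms were fed *E. coli* HT115(DE3) carrying the empty vector (N2 EV) or the *rpia-1* RNAi clone, starting at day 0 of adulthood (N2 *rpia-1* (RNAi) Day 0), and the labels give day 5 as their harvest. TU3401 worms carry the array uIs69, with myo-2p::mCherry and unc-119p::sid-1, in which the pan-neuronal *unc-119* promoter drives the double-stranded RNA channel gene *sid-1*, so that feeding RNAi acts strongly in neurons. They were fed EV (TU3401 EV) or *rpia-1* RNAi bacteria (TU3401 *rpia-1* (RNAi) WL) from the embryo on, for their whole life (WL), and the labels give day 0 as their harvest and name the L4 larval stage in the sample descriptions, whereas the study's methods give day 5 for all samples. Strain, onset of feeding and labelled age at harvest therefore change together between N2 and TU3401 and cannot be told apart. A sample was a pool of 500 worms or more, and replicates were separate collections.

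Argonaute proteins bind small RNAs and use them as guides to complementary transcripts. In *C. elegans* they fall into an AGO branch, which includes the microRNA-binding ALG-1 and ALG-2, a PIWI branch with PRG-1, which binds the piRNAs of the germline, and a branch found in worms, the WAGO proteins and CSR-1. In germ cells the piRNAs and other primary small RNAs set off the synthesis of secondary small RNAs by RNA-dependent RNA polymerases, and these are loaded onto WAGO proteins, which silence their targets, or onto CSR-1, whose targets are genes expressed in the germline.

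The values are those that the authors labelled TPM, a level per transcript length and per library. They sum to 1025899 to 1036143 per library, above the sum TPM has by definition, and were taken as a linear signal. Comparisons of levels between genes rest on the authors' label. The depth in reads is not known. The lowest and highest number of genes above 0 in a library were 17777 and 22388, the highest in N2 *rpia-1* (RNAi) Day 0 replicate 1. Differences in log2(TPM + 1) were fitted by limma for all genes that reached a mean of 1 TPM in the libraries compared, and an adjusted p (Benjamini-Hochberg over all genes tested) under 0.05 counted as passing. On this scale a change in a gene of a few TPM or less appears smaller than it is. The targeted gene *rpia-1* measured 128, 115.4 and 120.4 TPM in the N2 EV libraries, and the N2 *rpia-1* (RNAi) Day 0 libraries had 27.5, 32.8 and 30.2 TPM (log2 difference −1.97, standard error 0.08, adjusted p = 5.3e-04 from limma). The TU3401 EV libraries had 107, 107 and 115.3 TPM of it, and the TU3401 knockdown libraries 82.0, 88.5 and 106 TPM (log2 difference −0.26, standard error 0.12, adjusted p = 1.00 from limma).

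The labelled source, whole worms, was checked against markers of tissues. In the 3 N2 EV libraries the summed level of 4 body wall muscle genes lay between 18.8 and 25.1 TPM, against 1323 to 1493 TPM in TU3401 EV. The sum of 4 intestine genes lay between 47.9 and 53.95 TPM in N2 EV and between 2158 and 2319 TPM in TU3401 EV, and that of 3 pharynx genes between 0.281 and 0.681 TPM and between 49.0 and 77.1 TPM. The N2 libraries thus go against a whole-worm label in these tissues. Germline markers (9 genes) summed to between 4924 and 5357 TPM in N2 EV against 2919 to 3819 TPM in TU3401 EV, and oocyte markers (6 genes) to between 4267 and 4589 TPM and between 1311 and 1648 TPM. The sums were 8.60 to 13.6 TPM and 622 to 861 TPM for 3 hypodermis genes, 23.5 to 27.1 TPM and 26.3 to 30.5 TPM for 5 neuron genes, and 4.79 to 5.41 TPM and 3.23 to 4.602 TPM for 7 genes of the early embryo. The neuron genes did not move together, since *unc-119*, the largest part of the N2 sum, passed as lower in TU3401 EV (mean 18.75 TPM in N2 EV and 8.26 TPM in TU3401 EV), whereas *rab-3* (2.08 and 6.69 TPM), *ric-4* (1.62 and 9.64 TPM) and *snt-1* (0.668 and 1.95 TPM) passed as higher. Of these, *snt-1* was under 1 TPM in N2 EV and was tested only through its TU3401 libraries. Sperm markers (11 genes) summed to between 19.3 and 20.6 TPM in N2 EV and between 192 and 237 TPM in TU3401 EV, and 10 of them were below 1 TPM on average in N2 EV, 0 in TU3401 EV. In RNA of bulk samples, fewer cells of a type and less RNA per cell cannot be told apart, and the part of these markers in the differences between N2 and TU3401 given here was not tested.

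The 10 genes lie apart on 6 chromosomes. In the Ensembl annotation of WBcel235 *prg-1* (WBGene00004178) is at I:7585329-7588367 on the minus strand, *wago-1* (WBGene00011061) at I:7235384-7238792 on the plus strand, *alg-2* (WBGene00000106) at II:873212-879885 on the plus strand and *wago-4* (WBGene00010263) at II:12919551-12923377 on the plus strand. The gene *hrde-1* (WBGene00007624) is at III:4172337-4176159 on the minus strand, *alg-4* (WBGene00006449) at III:9887209-9891424 on the minus strand, *csr-1* (WBGene00017641) at IV:7957267-7962157 on the plus strand and *alg-3* (WBGene00011910) at IV:11704246-11708264 on the plus strand. The gene *ergo-1* (WBGene00019971) is at V:1008803-1018352 on the plus strand and *alg-1* (WBGene00000105) at X:13949110-13956261 on the plus strand. All 10 are annotated as protein-coding, and every value is for the whole gene, exons of all transcripts included. Exons of *csr-1* share 438 bases with *frpr-10* on the same strand, which reached at most 0.467 TPM. Those of *ergo-1* share 17 bases with *pei-2* and those of *prg-1* 12 bases with D2030.12, both on the opposite strand, and the strand setting of the counting is not given in the sources used here. An annotated snoRNA, K02B9.10, shares 96 of the 6696 exonic bases of *alg-1* on the same strand and reached at most 16.7 TPM. Since TPM is a level per length, such a level over 96 bases stands for far fewer reads than over 6696 bases. The paralogs *alg-1* and *alg-2*, *alg-3* and *alg-4*, and *prg-1* and *prg-2* are similar in sequence, so that reads could be shared within each pair, and how such reads were counted is not given.

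In N2 EV the order of the levels was *wago-1*, *hrde-1*, *prg-1*, *csr-1*, *ergo-1*, *wago-4*, *alg-2*, *alg-1*, *alg-3* and *alg-4*. Of the neighbours in this order, the ranges over the 3 libraries overlapped for *csr-1* and *ergo-1* only. WAGO-1 is a germline Argonaute of P granules, and its gene made up 31.6% of the summed TPM of the 10 genes and ranked 223 among all genes. In TU3401 EV *hrde-1* and *wago-1* stood first with overlapping ranges, each at 22.5% and 22.3% of the sum, followed by *csr-1* and *prg-1*, whose ranges overlapped too, and then *wago-4*, *ergo-1*, *alg-2*, *alg-1*, *alg-3* and *alg-4*. There, the ranges of *alg-2* and *alg-1* and those of *alg-3* and *alg-4* also overlapped. In the knockdown groups the order was that of N2 EV in N2, and in TU3401 it differed from TU3401 EV only in *wago-1* and *hrde-1*, whose ranges overlapped in both TU3401 groups. The 10 genes summed to 1701 to 2000 TPM in the N2 libraries and to 940.1 to 1227 TPM in the TU3401 libraries, and the ranges did not overlap.

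**Figure D1:**
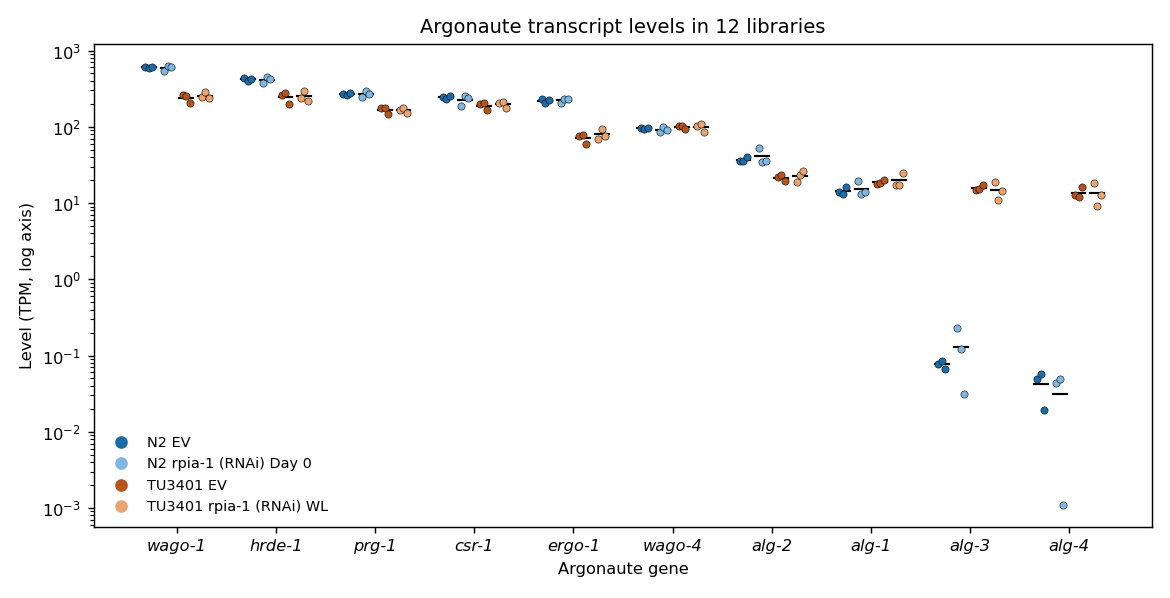
Level of each Argonaute gene (TPM, log axis) in the 12 libraries, with each library as a point and the mean of the 3 libraries of a group as a bar. N2 *rpia-1* (RNAi) Day 0 and TU3401 *rpia-1* (RNAi) WL stand beside the EV group of their strain and overlap with it for every gene, *alg-3* and *alg-4* lie below 1 TPM in all 6 N2 libraries and between 9.24 and 19.1 TPM in all 6 TU3401 libraries.

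The first question was whether the knockdown of *rpia-1* went with other Argonaute levels within a strain. No difference larger than the spread between libraries was found for any of these genes, and EV and knockdown libraries overlapped for all 10 in both strains. The share of all genes that overlap in this way was not counted, so that the overlap by itself sets no Argonaute apart. In N2, 8 of the 10 genes were tested, *alg-3* and *alg-4* being under the minimum, and 0 passed limma (0 at an unadjusted p under 0.05), against a background of 0.00941% of 10626 genes (1.66% at an unadjusted p under 0.05). Of these 8, 3 were higher and 5 lower, and the log2 differences ran from −0.11 (*csr-1*, standard error 0.10) to 0.12 (*alg-2*, standard error 0.16), with a median of −0.02 beside 0.00 over all genes tested, while with FPKM 0 were higher and 8 lower. In TU3401 all 10 were tested and 0 passed limma (0 at an unadjusted p under 0.05), against a background of 0.00% of 13921 genes, of which 1.18% had an unadjusted p under 0.05. Here 6 were higher and 4 lower, from −0.12 (*alg-3*, standard error 0.20) to 0.16 (*ergo-1*, standard error 0.14), with a median of 0.06 beside 0.00 over all genes, and with FPKM 0 were higher and 10 lower. The knockdown change in TU3401 minus that in N2 passed for 0 of the 10 genes in a limma fit of all 12 libraries (0 at an unadjusted p under 0.05, background 0.00747% of 13383 genes, and 1.17% unadjusted), with values from −0.18 (*alg-3*, standard error 0.27) to 0.17 (*csr-1*, standard error 0.16). In this fit *alg-3* and *alg-4* reached the minimum only through the TU3401 libraries, so that their values say little of N2. The lowest value of the other 8 genes was −0.05 (*alg-2*, standard error 0.23).

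**Figure D2:**
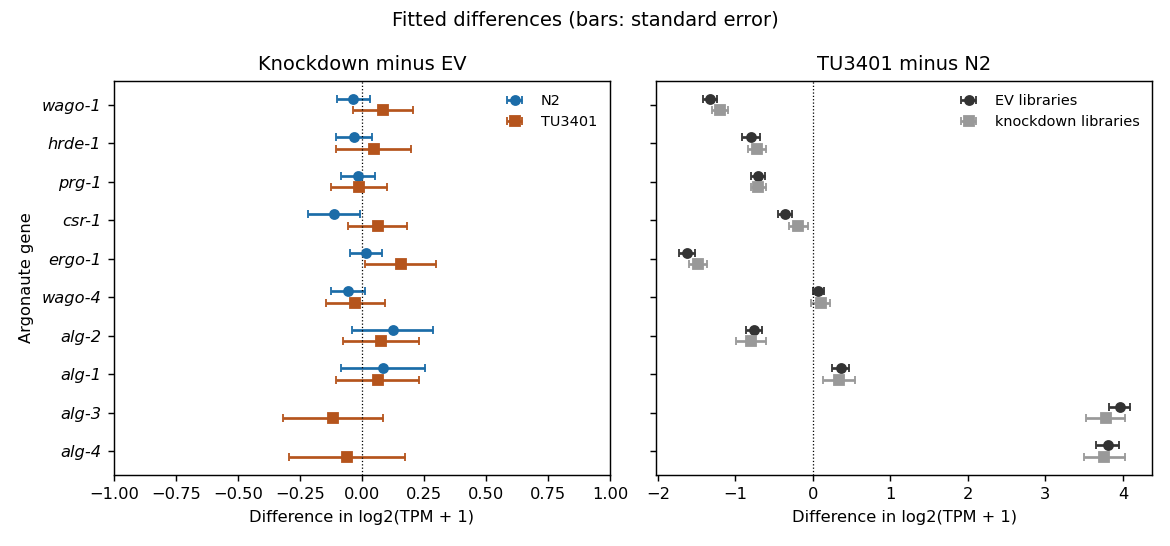
Fitted differences in log2(TPM + 1) for each Argonaute gene, with standard errors as bars, for knockdown minus EV within N2 and within TU3401 (left) and for TU3401 minus N2 among EV and among knockdown libraries (right, on a wider axis). The left values all lie between −0.12 and 0.16, with *alg-3* and *alg-4* not tested in N2, whereas the right values run from −1.63 for *ergo-1* to 3.96 for *alg-3*.

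The genes of the germline piRNA and secondary small RNA pathways are given first. The PIWI gene *prg-1* measured 272, 263 and 279 TPM in N2 EV, and 246, 295 and 268 TPM in N2 *rpia-1* (RNAi) Day 0. The TU3401 EV libraries had 178, 176 and 145 TPM, and the TU3401 knockdown libraries 167, 177 and 151 TPM. All 6 TU3401 libraries lay below all 6 N2 libraries, and EV and knockdown overlapped in both strains. The difference TU3401 EV minus N2 EV was −0.71 on the log2 scale (standard error 0.09, adjusted p = 3.4e-05 from limma), and that between the knockdown groups, which share no library with the EV groups, was −0.70 (standard error 0.10, adjusted p = 2.2e-04 from limma).

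The gene *wago-1* showed a wider gap. Its N2 EV libraries had 607, 586 and 611 TPM, and its N2 *rpia-1* (RNAi) Day 0 libraries 532, 628 and 604 TPM. In TU3401 the EV libraries had 259, 256 and 208 TPM, and the knockdown libraries 244, 286 and 234.95 TPM. Every TU3401 library was below every N2 library. The mean of TU3401 EV was 0.401 of that of N2 EV, with a log2 difference of −1.32 (standard error 0.09, adjusted p = 6.8e-07 from limma), and between the knockdown groups it was −1.20 (standard error 0.10, adjusted p = 2.1e-05 from limma).

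WAGO-4, a germline Argonaute needed for the inheritance of RNAi, is loaded with secondary small RNAs like WAGO-1. Its gene *wago-4* measured 96.9, 92.8 and 95.9 TPM in the N2 EV libraries, next to 103, 103 and 93.9 TPM in those of TU3401 EV. The N2 knockdown libraries had 84.4, 99.9 and 91.1 TPM and the TU3401 knockdown libraries 102, 110.2 and 84.3 TPM. The groups overlapped, with log2 differences of 0.07 (standard error 0.07, adjusted p = 0.35 from limma) between the EV groups and 0.10 (standard error 0.12, adjusted p = 0.46 from limma) between the knockdown groups. Without TU3401 EV replicate 3 the EV difference was 0.11 and passed (adjusted p = 0.035 from limma), and after quantile normalization it was 0.62 (adjusted p = 1.3e-05 from limma). Quantile normalization also gave 0.63 between the knockdown groups, which passed (adjusted p = 6.3e-04 from limma).

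HRDE-1 carries heritable silencing signals in the nuclei of germ cells. Its gene *hrde-1* measured 438, 401 and 421 TPM in N2 EV, and the N2 knockdown libraries had 372, 444 and 421 TPM. The TU3401 EV libraries had 258, 274 and 196 TPM, and the TU3401 knockdown libraries 240.0, 291 and 219.8 TPM. The strains did not overlap, and the log2 difference was −0.80 between the EV groups (standard error 0.12, adjusted p = 1.2e-04 from limma) and −0.72 between the knockdown groups (standard error 0.12, adjusted p = 6.0e-04 from limma).

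CSR-1 is the Argonaute whose secondary small RNAs match genes that the germline expresses. The level of *csr-1* was 244, 230.5 and 254 TPM for the N2 EV libraries against 202, 204 and 164 TPM for the TU3401 EV libraries, with each TU3401 library below each N2 library. The log2 difference was −0.36 (standard error 0.09, adjusted p = 0.0046 from limma). The call was lost after quantile normalization (−0.11, adjusted p = 0.24) and with FPKM (−0.20, adjusted p = 0.41, limma in both). With the knockdown the N2 libraries had 189.6, 251 and 238 TPM of *csr-1*, the TU3401 libraries had 207, 209 and 177 TPM, and the groups overlapped (log2 difference −0.19, standard error 0.12, adjusted p = 0.19 from limma). The low N2 value was that of replicate 1, and without this library the difference was −0.31 (adjusted p = 0.022 from limma).

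The remaining genes act on the primary small RNAs that Dicer makes or on microRNAs. ERGO-1 binds primary small RNAs, called 26G RNAs, in oocytes and embryos. Its gene *ergo-1* measured 231, 207 and 223 TPM in N2 EV, and the N2 knockdown libraries had 206, 233 and 229 TPM. The TU3401 EV libraries had 75.4, 77.8 and 60.1 TPM, and the TU3401 knockdown libraries 69.996, 92.9 and 75.2 TPM. The highest TU3401 library was below the lowest N2 library. Its log2 difference of −1.63 between the EV groups (standard error 0.10, adjusted p = 4.5e-07 from limma) was the lowest of the 10 genes, and between the knockdown groups it was −1.49 (standard error 0.12, adjusted p = 1.6e-05 from limma). The 6 oocyte markers had a median log2 difference of −1.57 between the EV groups, all 6 passing limma as lower in TU3401, and the 9 germline markers one of −0.67, with 7 passing as lower and 0 as higher. In this comparison limma called 43.4% of 13348 genes lower and 45.4% higher. With a minimum mean of 5 TPM it called 5291 of 9146 lower and 2983 higher, with a median over all genes of −0.48.

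ALG-3 and ALG-4 bind the 26G RNAs made during spermatogenesis and act there redundantly. The gene *alg-3* measured 0.0781, 0.0859 and 0.0673 TPM in N2 EV, and 0.228, 0.123 and 0.0316 TPM in N2 *rpia-1* (RNAi) Day 0. Its TU3401 EV libraries had 14.7, 15.1 and 17.4 TPM, and its TU3401 knockdown libraries 19.1, 10.9 and 14.4 TPM. For *alg-4* the N2 libraries had 0.0499, 0.0572 and 0.0192 TPM under EV feeding, then 0.0441, 0.0494 and 0.0011 TPM under knockdown, and the TU3401 libraries 12.7, 12.04 and 16.2 TPM under EV feeding, then 18.1, 9.24 and 12.9 TPM under knockdown. Both genes were above 9 TPM in every TU3401 library and below 0.3 TPM in every N2 library. The log2 differences on the log2(TPM + 1) scale were 3.96 for *alg-3* (standard error 0.13, adjusted p = 1.1e-08 from limma) and 3.802 for *alg-4* (standard error 0.15, adjusted p = 2.9e-08 from limma) between the EV groups, and 3.78 and 3.76 (standard errors 0.25 and 0.27, adjusted p = 8.4e-06 and 1.1e-05 from limma) between the knockdown groups. They passed the minimum of 1 TPM only through the TU3401 libraries, so that a difference was bound to be found once they were tested. Their size rests on the pseudocount, and for *alg-3* and the EV groups it was 6.48 with a pseudocount of 0.1 and 2.03 with one of 5. The depth behind the N2 values is not known, and no fold change is given for that reason.

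Within TU3401 the sum of *alg-3* and *alg-4* spread over the libraries. The EV libraries had 27.4, 27.1 and 33.6 TPM and the TU3401 *rpia-1* (RNAi) WL libraries 37.2, 20.1 and 27.3 TPM. The summed level of the 11 sperm markers was 200.3, 192 and 237 TPM and 243, 162 and 195 TPM in the same libraries. The 6 libraries had the same order by both sums, with TU3401 *rpia-1* (RNAi) WL replicate 1 highest and replicate 2 lowest. The ratio of *alg-4* to *alg-3* within a library varied little, at 0.862 ± 0.065 in TU3401 EV and 0.897 ± 0.0489 in the knockdown (SD, n = 3). In N2 the sperm marker sum, at 14.9 to 21.3 TPM, was made up mainly of *spe-44*, a regulator of spermatogenesis genes, at a mean of 17.2 TPM in N2 EV and 16.8 TPM in TU3401 EV. Another sperm marker, the phosphatase gene *gsp-3*, was listed at 0 in all 3 N2 knockdown libraries. The N2 libraries, where *alg-3* and *alg-4* were near 0, did not have the same order by both sums. Knockdown replicate 1 had the highest sum of *alg-3* and *alg-4*, 0.272 TPM, and the lowest of sperm markers, 14.9 TPM. Knockdown replicate 3 had the lowest and the highest, 0.0326 and 21.3 TPM.

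**Figure D3:**
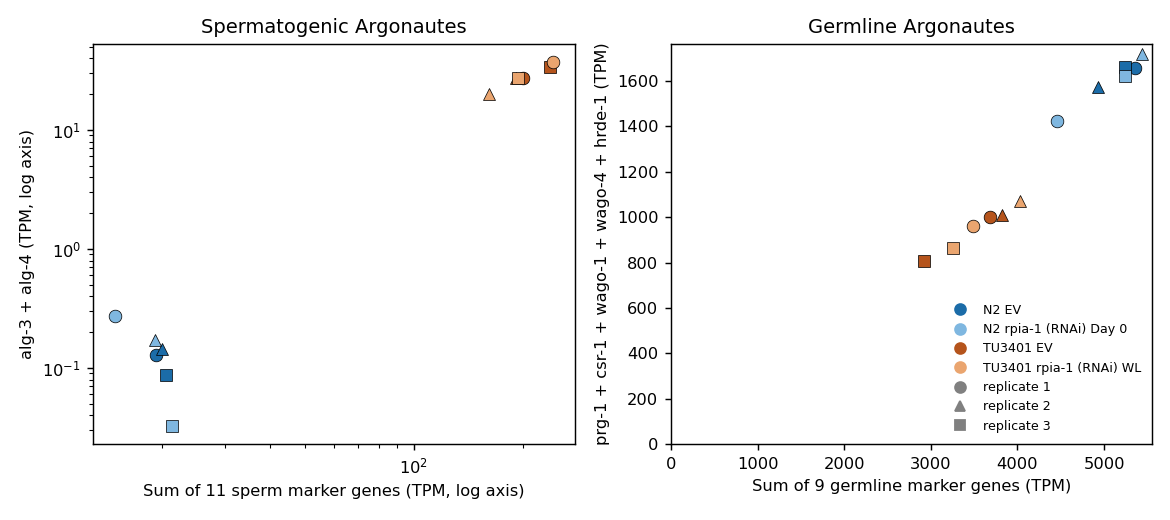
Summed TPM of *alg-3* and *alg-4* against the summed TPM of 11 sperm markers (left, both axes log), and summed TPM of *prg-1*, *csr-1*, *wago-1*, *wago-4* and *hrde-1* against that of 9 germline markers (right, linear axes), for the 12 libraries, with colour for the group and shape for the replicate. The TU3401 libraries stand at 20.1 to 37.2 TPM on the left, apart from N2 at 0.0326 to 0.272 TPM, and on the right they stand at 807 to 1073 TPM, below N2 at 1423 to 1718 TPM.

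ALG-1 and ALG-2 carry the microRNAs. The gene *alg-2* measured 36.1, 35.2 and 39.7 TPM in N2 EV, and the N2 knockdown libraries had 52.9, 35.005 and 35.3 TPM. The TU3401 EV libraries had 21.9, 23.3 and 19.2 TPM, and the TU3401 knockdown libraries 19.1, 23.5 and 26.02 TPM. It was lower in each TU3401 library than in each N2 library, by a log2 difference of −0.76 between the EV groups (standard error 0.10, adjusted p = 6.4e-05 from limma) and −0.80 between the knockdown groups (standard error 0.19, adjusted p = 0.0049 from limma). Its paralog *alg-1* measured 13.99, 13.1 and 16.01 TPM in N2 EV, against 17.9, 18.1 and 20.1 TPM in the TU3401 EV libraries, higher in each TU3401 library. That log2 difference was 0.36 (standard error 0.11, adjusted p = 0.012 from limma), but it was −0.12 after quantile normalization (adjusted p = 0.33) and did not pass with FPKM (0.50, adjusted p = 0.078), in a fit of all 12 libraries (0.36, adjusted p = 0.067) or without N2 EV replicate 2 (0.30, adjusted p = 0.057, limma in all). With the knockdown the N2 libraries had 19.5, 13.3 and 13.7 TPM of *alg-1*, overlapping with 17.3, 17.4 and 24.8 TPM for the TU3401 libraries (log2 difference 0.34, standard error 0.21, adjusted p = 0.17 from limma). Without the high N2 library, replicate 1, that difference was 0.50 and passed (adjusted p = 0.038 from limma), and after quantile normalization it was −0.03.

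Leaving out *alg-3* and *alg-4*, 6 of the other 8 genes were lower and 1, *alg-1*, was higher in TU3401 EV than in N2 EV, where limma called 43.4% of 13348 genes lower and 45.4% higher. In the knockdown groups 5 of these 8 were lower and 0 higher (the same counts at an unadjusted p under 0.05 in limma), where 40.9% of 13412 genes were lower and 39.0% higher. In either direction 88.8% and 79.9% of all genes passed (89.2% and 81.2% unadjusted), so that a call by itself sets no Argonaute apart from other genes. All 8 genes had group means above 5 TPM. Among all genes with a minimum mean of 5 TPM, 5291 of 9146 were lower and 2983 higher between the EV groups (median −0.48). Between the knockdown groups 5061 of 9164 were lower and 2630 higher (median −0.47). The median over all genes tested moved from 0.06 to −0.25 between the EV groups and from −0.02 to −0.24 between the knockdown groups after quantile normalization, and the calls from 6061 higher and 5798 lower to 4100 and 6546, and from 5234 and 5482 to 3679 and 6010. With FPKM it moved to −0.13 in the N2 knockdown comparison and to −0.15 in the TU3401 one, since TPM and FPKM differ by a factor of 1.21 in TU3401 EV replicate 3 and of 1.39 in N2 EV replicate 2 and of 1.70 to 1.93 in the other libraries.

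Ratios between a pair of genes in the same library do not depend on the scaling of that library, and 5 pairs were chosen after the values were seen. The ratio of *alg-2* to *alg-1* was 2.58 ± 0.101 in N2 EV, 2.64 ± 0.0723 in the N2 knockdown, 1.16 ± 0.178 in TU3401 EV and 1.17 ± 0.161 in the TU3401 knockdown (SD, n = 3). In replicate 1 of the N2 knockdown, where both genes were highest among the N2 libraries, the ratio was 2.72. The ratio of *wago-1* to *hrde-1* was 1.43 ± 0.0408 in N2 EV against 0.999 ± 0.0632 in TU3401 EV, and that of *wago-1* to *wago-4* 6.32 ± 0.0538 and 2.40 ± 0.164 in these groups (SD, n = 3). The ratio of *ergo-1* to *prg-1* was 0.811 ± 0.0323 and 0.426 ± 0.0147, and that of *prg-1* to *csr-1* was 1.119 ± 0.0224 and 0.878 ± 0.0121 (SD, n = 3). For all 5 pairs the N2 and TU3401 libraries did not overlap, among EV or among knockdown libraries (two-sided exact permutation p = 0.10, which is the lowest possible with 3 against 3, and 0.18 when adjusted over the 20 comparisons made). Between EV and knockdown the ratios overlapped, except *prg-1* to *csr-1* in TU3401, at 0.878 ± 0.0121 with EV and 0.833 ± 0.026 with the knockdown (SD, n = 3, two-sided exact permutation p = 0.10, adjusted 0.18). The adjustment leaves out the pairs that were not chosen, so that the p-values of these ratios only describe them and test nothing.

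**Figure D4:**
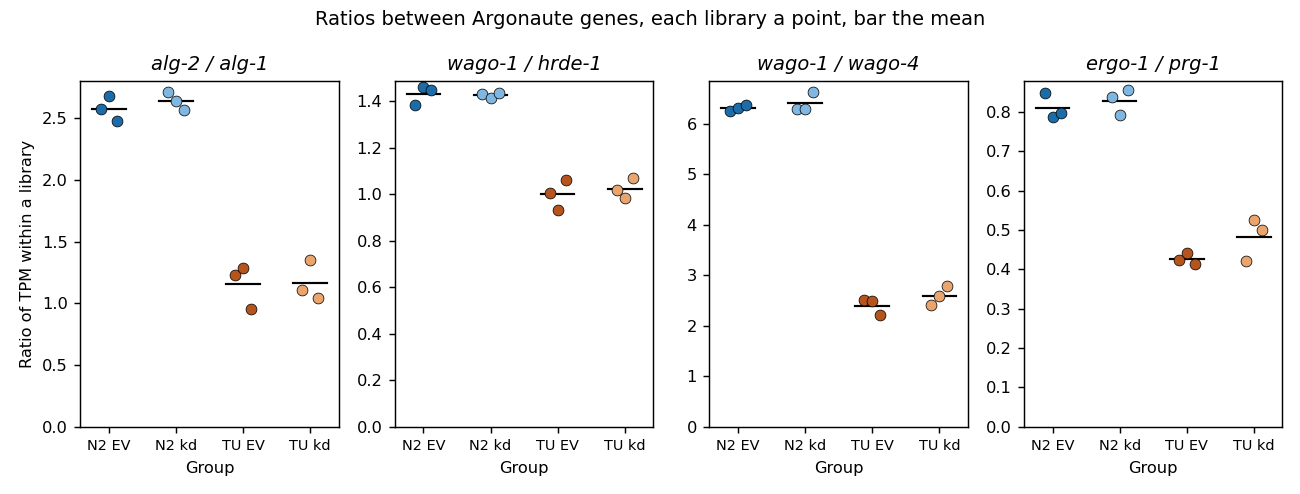
Ratio of TPM between Argonaute genes within each library (linear axes from 0) in N2 EV, N2 knockdown (N2 kd), TU3401 EV (TU EV) and TU3401 knockdown (TU kd), with each library as a point and the mean as a bar. In all 4 panels the N2 libraries lie above the TU3401 libraries, for *alg-2* to *alg-1* at 2.48 to 2.72 against 0.957 to 1.35.

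The libraries of a group differed from each other along lines shared by several Argonautes. N2 *rpia-1* (RNAi) Day 0 replicate 1 was the lowest of the 6 N2 libraries for *prg-1*, *csr-1*, *wago-1*, *wago-4*, *hrde-1* and *ergo-1*. It was the highest for *alg-1* and *alg-2*, and for *alg-3* at 0.228 TPM, a value under the minimum of 1 TPM. It also had the lowest sum of germline markers, 4459 TPM against 4924 to 5433 TPM in the other N2 libraries, and the highest of 5 neuron markers, 41.4 TPM against 20.8 to 27.1 TPM. Leaving it out turned the sign of the N2 knockdown difference of 7 of the 8 genes tested, all but *ergo-1*, for example to 0.01 for *csr-1* and −0.07 for *alg-2*, with an adjusted p of at least 0.89 from limma for all 8.

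In TU3401, EV replicate 3 was the lowest of 6 libraries for *prg-1*, *csr-1*, *wago-1*, *hrde-1* and *ergo-1* and had the lowest sum of germline markers, 2919 TPM. Replicate 2 of the TU3401 knockdown was the highest for *csr-1*, *wago-1*, *wago-4*, *hrde-1* and *ergo-1* and the lowest for *alg-3* and *alg-4*, with the highest sums of germline and oocyte markers, 4025 and 1891 TPM, and the lowest of sperm markers. The summed level of *prg-1*, *csr-1*, *wago-1*, *wago-4* and *hrde-1* put the 6 TU3401 libraries in the same order as the germline markers did, and in N2 both sums had N2 *rpia-1* (RNAi) Day 0 replicate 2 first and replicate 1 last. Markers and Argonautes are parts of the same library totals, and the part of the markers in these differences was not tested.

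**Figure D5:**
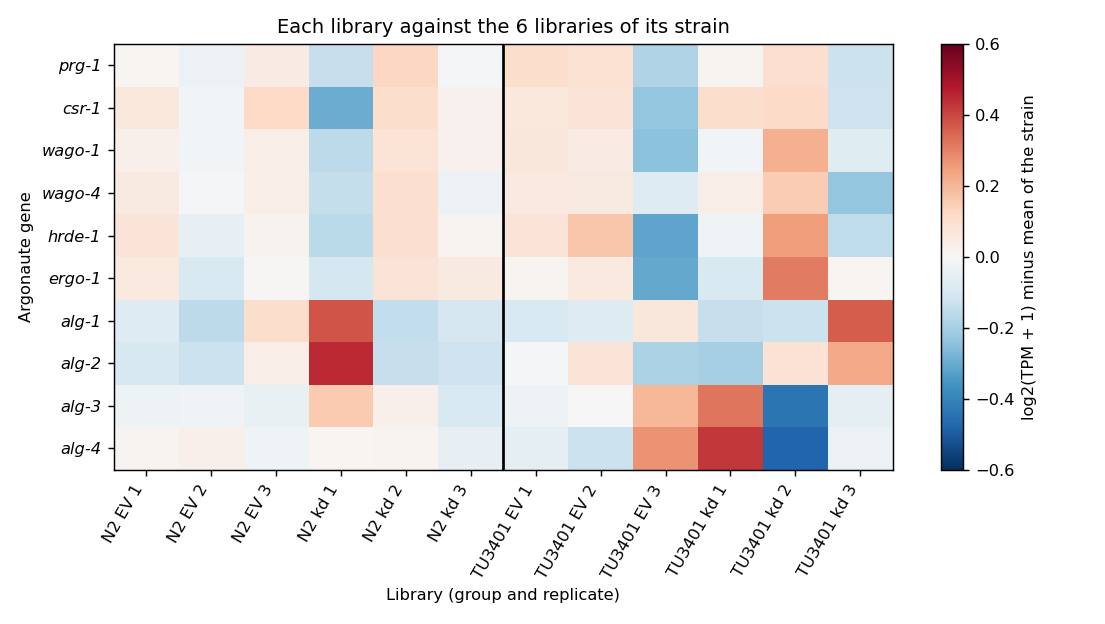
Difference of each library from the mean of the 6 libraries of its strain in log2(TPM + 1), for each Argonaute gene (rows) and library (columns, kd for knockdown), with red for higher and blue for lower. N2 knockdown replicate 1 is blue for *prg-1* to *ergo-1* and red for *alg-1* and *alg-2*, and TU3401 knockdown replicate 2 is red for *csr-1* to *ergo-1* and blue for *alg-3* and *alg-4*.

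The partners of these Argonautes were counted in lists. Of 13 other Argonaute genes, 11 were tested between the EV groups. Of these 11, 4 passed as higher and 5 as lower in TU3401 EV, where 45.4% of all genes were higher and 43.4% lower (median log2 difference −0.10, beside 0.06 over all genes). Among them, *nrde-3*, the nuclear Argonaute of somatic cells, was at a mean of 28.6 TPM in N2 EV and 8.03 TPM in TU3401 EV (log2 difference −1.71), *vsra-1* was at 33.9 and 14.6 TPM (−1.16), and *wago-10* at 0.119 and 2.73 TPM (1.73), tested only through its TU3401 libraries. The gene *prg-2*, a close relative of *prg-1* with which it may share reads, was higher in TU3401 EV, at 297 TPM against 187 TPM (log2 difference 0.66, standard error 0.08, adjusted p = 4.7e-05 from limma), the direction opposite to that of *prg-1*. It was named after its values were seen.

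In the microRNA pathway all 6 genes were lower in TU3401 EV, with a median of −0.73, among them *drsh-1*, the nuclease that cuts primary microRNA transcripts (−1.45), its partner *pash-1* (−0.67) and the Dicer gene *dcr-1* (−1.01). Of 10 genes of piRNA biogenesis 8 were lower and 0 higher (median −1.02), with *tofu-6* and *pid-3*, of the complex that processes piRNA precursors, at −1.51 and −1.18, and *tofu-5*, of the complex that transcribes piRNA genes, at −1.19. All 7 genes of the 26G pathway were lower (median −1.03), with the exonuclease gene *eri-1* at −1.64, *eri-5* at −1.67 and the double-stranded RNA-binding *rde-4* at −1.24. All 18 genes of the amplification of secondary small RNAs were lower (median −0.99), with the ribonuclease gene *nyn-2* at −2.17, the helicase gene *smut-1* at −1.52 and the nucleotidyltransferase gene *mut-2* at −1.45. Of 6 nuclear RNAi genes 5 were lower and 1 higher (median −0.69), with *hrde-2* at −1.37, *nrde-1* at −1.25 and *nrde-4* at −0.97. All of these named genes passed limma between the EV groups, where 43.4% of all genes were lower. Among genes with a minimum mean of 5 TPM, 5291 of 9146 were lower and 2983 higher, with a median over all of them of −0.48.

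Between the knockdown groups the lists gave 4 higher and 5 lower for the other Argonautes, 0 higher and 6 lower for the microRNA pathway, 0 and 8 for piRNA biogenesis, 0 and 7 for the 26G pathway, 0 and 17 for amplification and 1 and 3 for nuclear RNAi, where 39.0% of all genes were higher and 40.9% lower. The 4 higher Argonautes include *wago-10*, tested only through its TU3401 libraries here too. With a minimum mean of 5 TPM, 5061 of 9164 genes passed as lower and 2630 as higher between the knockdown groups. Within a strain, 0 genes of these 6 lists passed limma between knockdown and EV in either strain (0 also at an unadjusted p under 0.05).

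The genes with the most similar pattern over the 12 libraries were sought among 12489 protein-coding genes by the root mean square difference in log2(TPM + 1), each gene centred on its own mean. For *prg-1* they were F52B5.3 (0.0359), T20B12.3 (0.0396) and *athp-1* (0.0412), and for *csr-1* they were Y45G5AM.2 (0.043), *ifg-1*, a translation initiation factor gene (0.0477), and Y61A9LA.10 (0.0583). For *alg-1* they were F40E10.6 (0.0763), C34F6.7 (0.0823) and the kinase gene *hpk-1* (0.0911). For *alg-3* they were T05A7.6 (0.0585), *ttbk-2* (0.0707) and K03H1.12 (0.0742), which had means of 0.0613, 0.0033 and 0 TPM in N2 EV and of 14.5, 13.9 and 14.7 TPM in TU3401 EV. These libraries fall into 2 strains, and how much of the likeness of such patterns lies in the gap between them was not tested.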

How the data were processed

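RNA of 12 samples labelled as whole worms was sequenced by the authors from Illumina Stranded mRNA libraries, paired-end, on a NovaSeq 6000. The submitters' processing notes name FastQC 0.11.9, MultiQC 1.12, Trimmomatic 0.36, HISAT2 2.2.1 and featureCounts 1.6.2. The genome build is not given in the sources used here. The deposited values that the authors labelled TPM were taken as a linear signal, since they sum to 1025899 to 1036143 per library, above the sum TPM has by definition. The deposited FPKM values served as an alternative. The depth in reads is unknown, and no tool for counts was applied. Of the 46904 gene IDs 46817 were found in Ensembl release 115 of WBcel235, the source of coordinates. No sequences were printed.

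Groups were taken from the sample labels. For each comparison of 3 against 3 libraries limma 3.58.1 under R 4.3.3 was used (empirical Bayes, mean-variance trend) on log2(TPM + 1), with a minimum mean of 1 TPM, and the difference of the knockdown changes in a fit of all 12 libraries. The method was tested on simulated data. Single values were tested by exact permutation. Other steps ran in Python 3.11.15 with scipy 1.17.1, pandas 2.3.3, numpy 2.4.6 and matplotlib 3.10.9. The 10 genes, and the 15 lists of 112 genes, were chosen with earlier results of these data known. All 10 genes are named, with up to 3 genes of a list, those with the smallest p, and the 3 nearest patterns of 4 genes. Named outside this rule were *prg-2*, the neuron marker *snt-1* and the sperm marker *spe-44*. The alternatives were FPKM, pseudocounts of 0.1 and 5, no minimum or one of 5 TPM, median-of-ratios and quantile scaling, no trend, a fit of all libraries, the replicate number as a block, and leaving out each library. No column of other samples or of the authors' own comparisons was used.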

Additional observations from a re-analysis of the deposited data

How the results depend on the processing

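The number of Argonautes passing limma stayed at 0 within N2, within TU3401 and for the difference of the knockdown changes under every alternative run, and ran from 7 to 10 between the EV groups and from 7 to 9 between the knockdown groups. Without *alg-3* and *alg-4*, which are tested only through TU3401, these counts ran from 5 to 8 and from 5 to 7. The calls of *prg-1*, *wago-1*, *hrde-1*, *ergo-1* and *alg-2* between N2 and TU3401 held under all 16 alternatives of both comparisons. Over all genes the calls ran from 1 to 33 in N2 (33 without replicate 1 of the knockdown), from 0 to 6 in TU3401 (6 with no minimum), from 8274 to 13942 between the EV groups and from 7691 to 11248 between the knockdown groups, and from 0 (FPKM) to 10 (no minimum) for the difference.

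Signs turned only for log2 differences that did not pass, except *alg-1* between the EV groups, at −0.12 after quantile normalization. Between the knockdown groups quantile normalization gave 0.054 for *csr-1* and −0.033 for *alg-1*. With FPKM, the N2 knockdown differences were −0.11 for *ergo-1*, −0.034 for *alg-1* and −0.0031 for *alg-2*, and those in TU3401 −0.10 for *csr-1*, −0.082 for *wago-1*, −0.12 for *hrde-1*, −0.0099 for *ergo-1*, −0.094 for *alg-1* and −0.080 for *alg-2*. Median-of-ratios scaling gave −0.007 for *ergo-1* in N2, and 0.03 for *prg-1* and 0.016 for *wago-4* in TU3401.

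Leaving out each library in turn, the N2 knockdown difference ran from −0.083 to 0.048 for *prg-1*, −0.19 to 0.010 for *csr-1*, −0.085 to 0.035 for *wago-1*, −0.12 to 0.0034 for *wago-4*, −0.086 to 0.042 for *hrde-1*, −0.027 to 0.072 for *ergo-1*, −0.0805 to 0.18 for *alg-1* and −0.069 to 0.22 for *alg-2*. In TU3401 it ran from −0.11 to 0.051 for *prg-1*, −0.038 to 0.14 for *csr-1*, −0.017 to 0.14 for *wago-1*, −0.11 to 0.082 for *wago-4*, −0.0975 to 0.14 for *hrde-1*, 0.038 to 0.24 for *ergo-1*, −0.10 to 0.15 for *alg-1*, −0.017 to 0.20 for *alg-2*, −0.31 to 0.074 for *alg-3* and −0.29 to 0.16 for *alg-4*. A group of 2 is assumed to vary like the other group of its fit.

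The replicate numbers were not taken as pairs in the main fits. In N2 the deviations of same-numbered libraries correlated at −0.40, 0.03 and −0.35, against −0.36 to 0.43 for different numbers. In TU3401 they correlated at 0.06, 0.46 and 0.44, against −0.51 to 0.24 for different numbers, so that the numbers may be pairs there. With the replicate number as a block, the genes at an unadjusted p under 0.05 in limma went from 164 to 355 in TU3401 and from 176 to 101 in N2. With the replicate block 0, 0, 9 and 7 Argonautes passed in N2, in TU3401, between the EV groups and between the knockdown groups, as without it.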
